A study of Homo sapiens with 16 samples.

Results

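The SLC1 family comprises 7 genes, SLC1A1 to SLC1A7, and was taken by gene symbol from the array's annotation. The 7 genes, of 18239 with a probe set of their own, were read by 26 probe sets of 45253. A probe set is a group of short oligonucleotides on the array that together report 1 transcript or a few transcripts of a gene. All values are log2 RMA values, on which a difference of 1 is a doubling. Differences are taken between arrays, for the same probe set or the same average or sum of probe sets. Between probe sets the signal is used only for ranking, as in naming a gene's brightest probe set or calling others dim. The family was chosen with earlier results of these data known, among them the high level of SLC1A1 after risperidone. Values of its members against untreated cells are therefore given as a description, with calls only as a count beside that of all genes, from which nothing is read. Tests are given between exposure times.

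The arrays profiled SK-N-SH, a human neuroblastoma cell line whose cultures hold neuroblast-like and substrate-adherent cells. The 16 arrays formed 4 groups of 4: cells left untreated and cells exposed for 6 h, 24 h or 48 h to 10 µM risperidone, an antipsychotic that blocks dopamine D2 and serotonin 5-HT2A receptors. Cells of every group were grown for 48 h to about 95% confluence before exposure, per the labels' protocols. The controls are labelled untreated, although the protocol describes a DMSO vehicle of at most 1% of the volume, and no label states when they were harvested. The same 4 untreated arrays serve all 3 exposures, so the differences from untreated share their controls. The labels call the arrays of a group biological replicates without describing separate cultures, and p-values then measure only the spread between these samples.

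The SLC1 proteins are transporters of the plasma membrane that run on the sodium gradient. Those encoded by SLC1A1, SLC1A2, SLC1A3, SLC1A6 and SLC1A7 take up glutamate and aspartate, which ends excitatory signals, and supply glutamate to the cell. SLC1A1 (EAAT3) is the neuronal form and also carries cysteine, a building block of glutathione. SLC1A2 (EAAT2) and SLC1A3 (EAAT1) are best known from astrocytes, SLC1A6 (EAAT4) from Purkinje cells of the cerebellum and SLC1A7 (EAAT5) from the retina. The remaining members, SLC1A4 (ASCT1) and SLC1A5 (ASCT2), exchange neutral amino acids such as serine, alanine and, for SLC1A5, glutamine.

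No pair of arrays shared more than 3.64% of identical values. Of the cell types that such a culture can hold, the markers of substrate-adherent cells differed most between treated and untreated arrays. Their median differences at 6 h, 24 h and 48 h were -2.97, -2.57 and -2.81. Markers of neuroblast-like cells had medians of 0.29, 0.32 and 0.42, and glial markers 0.05, 0.02 and 0.06. Of 10 markers of substrate-adherent cells, 9 were lower than in untreated cells at each exposure by limma's test at an adjusted p of 0.05, and 1 was higher at 48 h. Their mean log2 value ranged over 7.52 to 7.96 at 6 h, 7.88 to 8.0 at 24 h and 7.77 to 7.95 at 48 h, against 10.34 to 10.48 in untreated arrays. PRRX1, a transcription factor of the substrate-adherent state, differed by -5.10 ± 0.14 (difference ± SE) at 6 h (adjusted p = 2.28e-15, limma). Its other probe set differed by -1.855 at 6 h, and the mean of its probe sets by -3.475. Of the 9 measured markers of neuroblast-like cells, 8 were higher at 6 h and 7 at both 24 h and 48 h. Their mean log2 value ranged over 11.14 to 11.23 at 6 h, 11.20 to 11.22 at 24 h and 11.26 to 11.34 at 48 h, against 10.75 to 10.84 in untreated arrays. DBH, the enzyme that makes noradrenaline, was higher by 1.16 at 6 h and by 1.74 at 48 h (SE 0.07). TH, of the same list, differed by only 0.28, 0.16 and 0.10 and was called at 6 h alone. That call was lost in the mean of its probe sets (adjusted p = 0.115, limma). Among 8 measured glial markers, 1 or 2 were higher and 1 was lower at each exposure, 3 lay below the 25th percentile of all probe sets, and the list did not move as one. Beside these marker counts, 26%, 24.9% and 26.2% of all genes were higher at 6 h, 24 h and 48 h. The shares lower were 12.3%, 12.4% and 15.6%. The glial counts do not stand out from these shares, and nothing is read from them. GFAP, an astrocyte filament protein, was called at no exposure, and S100B was higher by 0.61, 0.57 and 0.39. The mean log2 value of the glial list was 4.52 to 4.61 in untreated arrays. It was 4.24 to 4.29 at 6 h, 4.27 to 4.39 at 24 h and 4.24 to 4.37 at 48 h. The log2 of the summed glial level, in which bright markers weigh most, was 10.16 to 10.33 in untreated arrays. This sum was 7.82 to 8.17 at 6 h, 8.08 to 8.28 at 24 h and 8.0 to 8.27 at 48 h. GJA1, a gap junction gene of that list named after its values were seen, differed by -3.29 at 6 h. In these bulk samples, fewer cells of a type and less RNA per cell cannot be told apart, and the part of these marker differences in the SLC1 values was not tested.

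**Figure D1:**
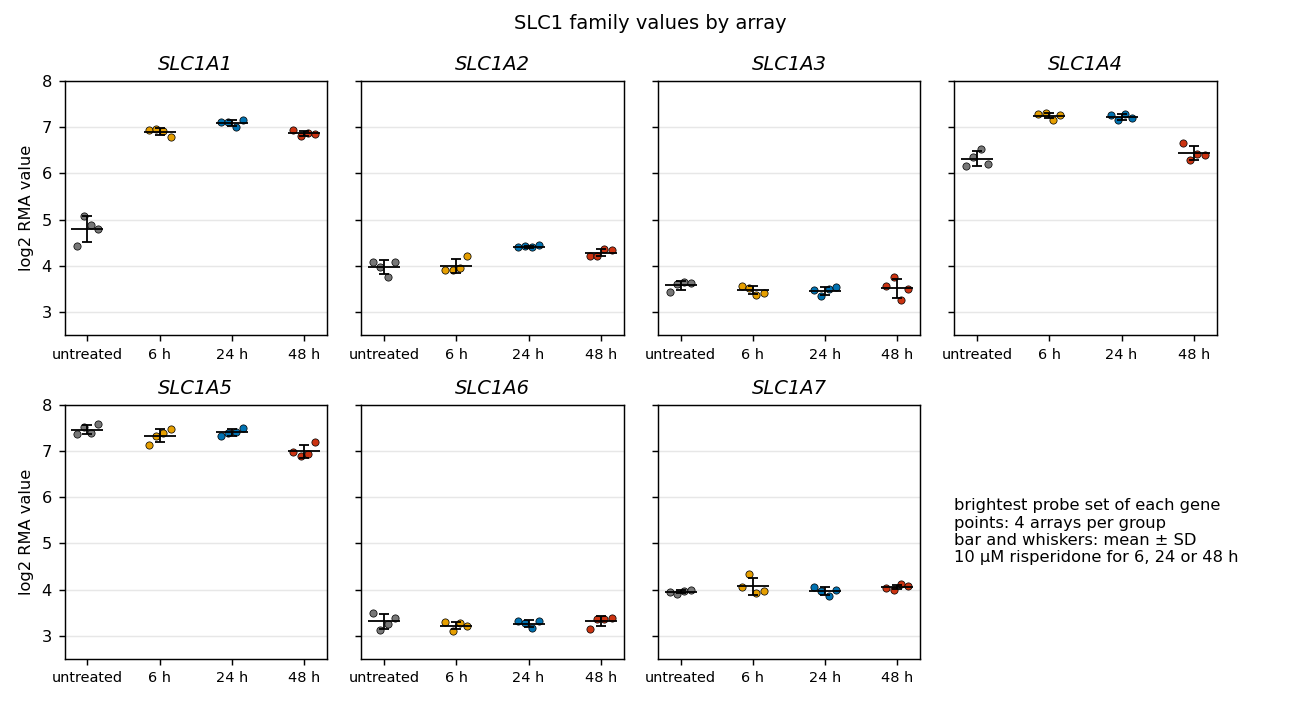
Log2 RMA value (vertical axis) of the brightest probe set of each SLC1 gene in the 4 arrays of each group, with the mean and SD as bar and whiskers. SLC1A1 lay between 6.79 and 7.16 in the 12 treated arrays and between 4.42 and 5.08 in the untreated arrays, SLC1A4 was high at 6 h and 24 h only, and SLC1A5 was lowest at 48 h.

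SLC1A1, the neuronal glutamate and cysteine transporter, had the widest span of the family. Its brighter probe set, 11721352_at, read 4.42, 5.08, 4.89 and 4.79 in untreated arrays. It read 6.93, 6.97, 6.91 and 6.79 at 6 h, and 7.11, 7.12, 7.0 and 7.16 at 24 h. At 48 h the values were 6.94, 6.81, 6.87 and 6.85. Every treated array lay above every untreated array, and the treated groups had SDs of 0.05 to 0.08, against 0.28 in untreated arrays. The differences from untreated cells were 2.10 (95% confidence interval 1.90 to 2.31) at 6 h, 2.30 at 24 h and 2.07 at 48 h, each with an SE of 0.10. They correspond to 4.30-fold, 4.93-fold and 4.21-fold higher levels. The contrast with untreated cells is the one that drew attention to SLC1A1, so no test is given for it. The interval does not allow for that choice and is not to be read as a test.

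Between exposures SLC1A1 moved little. The 24 h values lay above the 6 h values without overlap, by 0.20 ± 0.10, but this did not pass limma's test (adjusted p = 0.409). The 48 h values lay below the 24 h values without overlap, by -0.23 (95% confidence interval -0.43 to -0.03), and did not pass (adjusted p = 0.123). This last call depended on the spread assumed: it passed when only the 8 arrays compared were fitted (adjusted p = 0.0159), without untreated replicate 1 (adjusted p = 0.0189) and without all untreated arrays (adjusted p = 0.00968). At 48 h and 6 h the values overlapped, and the difference was -0.03 (95% confidence interval -0.23 to 0.17; adjusted p = 0.863). All 3 of these comparisons use arrays of the contrasts with untreated cells by which the gene was noticed.

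The second SLC1A1 probe set, 11721351_at, showed much smaller differences from untreated cells. Its values were 3.68, 3.51, 3.27 and 3.41 in untreated arrays and 3.55 to 3.93 at 6 h, 3.56 to 3.84 at 24 h and 3.63 to 3.70 at 48 h. The groups overlapped at each exposure, and the differences were 0.28, 0.26 and 0.20 (SE 0.09). It was the dimmer of the pair, near the 31.8th percentile of all probe sets. Both probe sets were thus higher in treated arrays, by very different amounts, and which transcripts each reads was not analysed here.

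The start region of SLC1A1 is shown because this gene had the widest span. It comes from RefSeq (GRCh38.p14), on the plus strand at chr9:4490218-4490487, and runs from 250 bases before the annotated start through the first 20 bases of the gene. Capitals mark GGGCGG or its reverse complement CCGCCC, the GC box letters that SP1-type factors bind.
SLC1A1 start region: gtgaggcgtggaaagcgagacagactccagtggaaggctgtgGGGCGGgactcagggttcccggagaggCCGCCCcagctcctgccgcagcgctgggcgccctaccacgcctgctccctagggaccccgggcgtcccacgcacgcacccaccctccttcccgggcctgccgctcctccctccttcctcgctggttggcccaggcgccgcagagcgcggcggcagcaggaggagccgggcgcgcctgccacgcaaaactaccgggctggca
The full 300-base window, which reaches 50 bases past the start, was 74.7% G and C, against a median of 58.7% over 35116 such windows. GGGCGG or CCGCCC occurs in 45.0% of all these windows, so its presence is common. The letters TGACNNNGC on either strand, the core of the antioxidant response element, occur in 13.3% of the windows and were not found in this one. Both motifs, and the one described for the exchangers below, were chosen after the values and sequences were seen.

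SLC1A2, the main astrocyte glutamate transporter, had a small later difference in 1 of its 4 probe sets. The brightest, 11718492_at, read 4.08, 3.97, 3.76 and 4.08 in untreated arrays and 3.92, 3.90, 3.96 and 4.21 at 6 h. It read 4.40, 4.42, 4.40 and 4.44 at 24 h, and 4.22, 4.21, 4.37 and 4.35 at 48 h. The 24 h values lay above all 6 h and all untreated values. Against 6 h, the 24 h level rose by 0.42 ± 0.08 (adjusted p = 0.00607, limma), and the 48 h level by 0.29 ± 0.08 (adjusted p = 0.0108), although at 48 h the groups overlapped. Against untreated cells the differences were 0.03, 0.44 and 0.32 at 6 h, 24 h and 48 h. The other 3 probe sets of SLC1A2 were called in no comparison between exposure times, and when the 4 probe sets were averaged neither between-time call held (adjusted p = 0.199 for 24 h against 6 h and 0.440 for 48 h against 6 h). All 4 probe sets of SLC1A2 lay in the lower part of the signal range, below the median of all probe sets.

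The remaining glutamate transporters, SLC1A3, SLC1A6 and SLC1A7, stayed dim in every group. Their 11 probe sets read between 2.85 and 4.38 in all 16 arrays, and 3 of the 11 lay above the 25th percentile of all probe sets, none above the 50th. Differences from untreated cells ran from -0.23 to 0.26 over the 33 comparisons. Between exposure times they ran from -0.17 to 0.15, and none of 33 was called, beside 1.71% of all probe sets for 24 h against 6 h, 16.4% for 48 h against 24 h and 21.1% for 48 h against 6 h. RMA compresses differences at the low end of the signal range, and these values do not show that the transcripts were absent or equal.

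**Figure D2:**
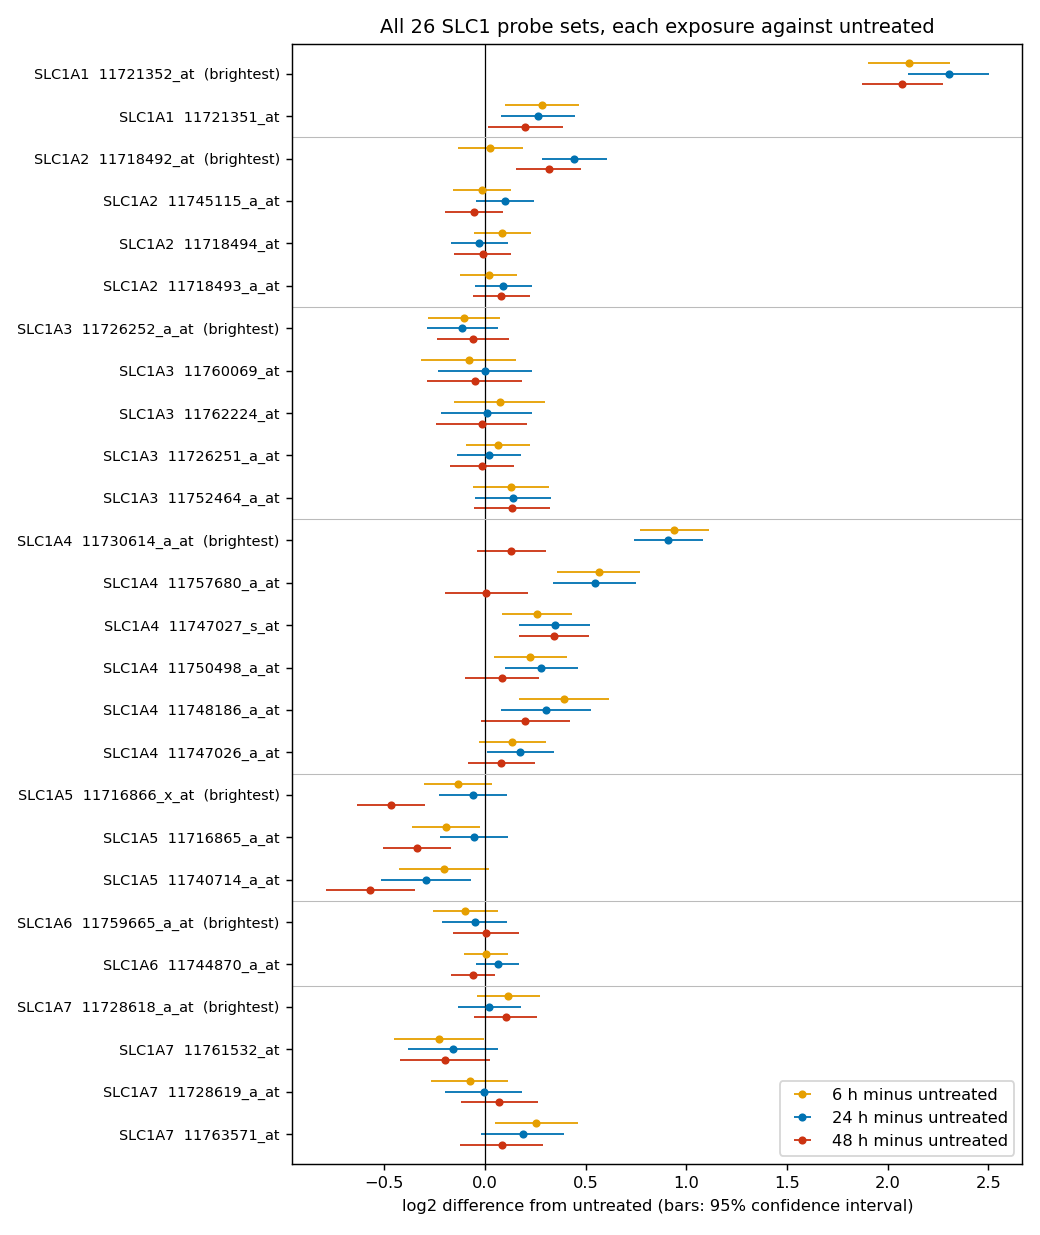
Log2 difference from untreated cells (horizontal axis) of all 26 SLC1 probe sets at 6, 24 and 48 h, with 95% confidence intervals as bars. The intervals do not allow for the choice of the family and are not to be read as tests. SLC1A1 11721352_at stands furthest to the right at each exposure, SLC1A4 11730614_a_at is to the right at 6 h and 24 h but near 0 at 48 h, and the SLC1A5 probe sets are to the left at 48 h.

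SLC1A4, the serine and alanine exchanger, was higher at 6 h and 24 h and close to the untreated level at 48 h. Its brightest probe set, 11730614_a_at, read 6.16, 6.36, 6.52 and 6.21 in untreated arrays and 7.28, 7.30, 7.16 and 7.27 at 6 h. It read 7.27, 7.15, 7.28 and 7.19 at 24 h, and 6.66, 6.29, 6.42 and 6.40 at 48 h. All 8 arrays of the earlier exposures lay above all 8 arrays of the 48 h and untreated groups, which overlapped each other. The differences from untreated cells were 0.94, 0.91 and 0.13 at 6 h, 24 h and 48 h (SE 0.08). Against 24 h, the 48 h level fell by 0.78 (SE 0.08; 95% confidence interval -0.95 to -0.61; adjusted p = 2.86e-06, limma), which is 1.72-fold lower. Against 6 h, the 48 h level fell by 0.81 (adjusted p = 1.12e-06), and the 24 h level differed from it by -0.03 (adjusted p = 0.935).

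A second SLC1A4 probe set, 11757680_a_at, had the same shape at a smaller size. It read 5.39, 5.82, 5.70 and 5.76 in untreated arrays and 6.15, 6.27, 6.32 and 6.19 at 6 h. It read 6.12, 6.33, 6.27 and 6.13 at 24 h, and 5.74, 5.53, 5.49 and 5.93 at 48 h. The 48 h level fell by 0.54 ± 0.10 against 24 h (adjusted p = 0.000731) and by 0.56 against 6 h (adjusted p = 0.00039). The other 4 probe sets of SLC1A4 did not pass in the comparison of 48 h with 24 h, with differences of -0.20 to -0.0025 and adjusted p from 0.154 to 0.989. One of them, 11747027_s_at, was 0.26, 0.35 and 0.34 above untreated cells at 6 h, 24 h and 48 h, and so kept its distance from the untreated level at 48 h. The difference between probe sets was not tested. With the 6 probe sets averaged, the 48 h level still fell by 0.29 against 24 h (adjusted p = 0.000465) and by 0.28 against 6 h (adjusted p = 0.000443), and the differences from untreated cells were 0.42, 0.43 and 0.14.

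**Figure D3:**
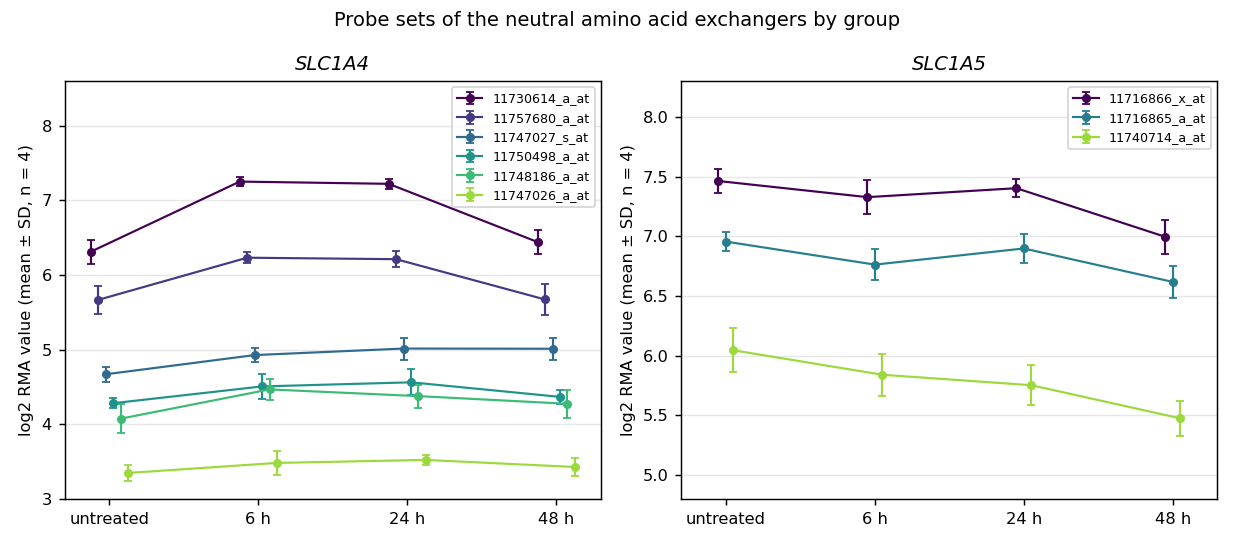
Mean log2 RMA value with SD (vertical axis; n = 4 arrays) of every probe set of the exchangers SLC1A4 (left) and SLC1A5 (right) in untreated cells and at 6, 24 and 48 h. For SLC1A4, 11730614_a_at and 11757680_a_at were high at 6 h and 24 h and came back to within 0.13 of the untreated mean at 48 h, and each SLC1A5 probe set had its lowest mean at 48 h.

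SLC1A5, the glutamine exchanger, was lower at 48 h in all 3 of its probe sets. The brightest, 11716866_x_at, read 7.37, 7.52, 7.38 and 7.58 in untreated arrays and 7.13, 7.33, 7.38 and 7.47 at 6 h. It read 7.32, 7.38, 7.41 and 7.50 at 24 h, and 6.97, 6.88, 6.93 and 7.20 at 48 h. The 48 h values lay below every 24 h and every untreated value. The 48 h level fell by 0.41 ± 0.08 against 24 h (adjusted p = 0.00148, limma) and by 0.33 against 6 h (adjusted p = 0.00565), where 1 array of each group overlapped. The difference between 24 h and 6 h was 0.08 (adjusted p = 0.785). Against untreated cells the differences were -0.14, -0.06 and -0.47 at 6 h, 24 h and 48 h.

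The calls of the other SLC1A5 probe sets lay near the threshold. For 11716865_a_at the 48 h level fell by 0.28 against 24 h (adjusted p = 0.0215), and the call was lost without 24 h replicate 3 or 4 or 48 h replicate 1, 2 or 3 (differences from -0.26 to -0.23, adjusted p from 0.0612 to 0.0802). For 11740714_a_at the 48 h level fell by 0.37 against 6 h (adjusted p = 0.0184), which was lost without 6 h replicate 3 (difference -0.31, adjusted p = 0.0658) or 48 h replicate 4 (difference -0.30, adjusted p = 0.0646). The same probe set differed by -0.28 between 48 h and 24 h (adjusted p = 0.0872). Against untreated cells the 48 h differences of these probe sets were -0.34 and -0.57, and no 48 h array overlapped an untreated array in either. The means of 11740714_a_at were 6.045 in untreated cells, 5.84 at 6 h, 5.75 at 24 h and 5.475 at 48 h. In this probe set the mean was thus already below that of untreated cells before 48 h.

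The start regions of the exchangers are shown because these genes carry the falls between exposure times. Both come from RefSeq (GRCh38.p14) and run, as above, from 250 bases before the start through base 20. SLC1A4 lies on the plus strand at chr2:64989149-64989418 and SLC1A5 on the minus strand at chr19:46788575-46788844. Capitals mark GGGCGG or CCGCCC and, in SLC1A4, the letters TTGCATCA.
SLC1A4 start region: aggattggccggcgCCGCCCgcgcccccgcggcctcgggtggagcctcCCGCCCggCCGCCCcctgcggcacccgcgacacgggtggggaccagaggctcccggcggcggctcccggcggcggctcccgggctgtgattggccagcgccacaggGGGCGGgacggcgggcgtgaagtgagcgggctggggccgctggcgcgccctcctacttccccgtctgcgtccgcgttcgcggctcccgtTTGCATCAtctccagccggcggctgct
SLC1A5 start region: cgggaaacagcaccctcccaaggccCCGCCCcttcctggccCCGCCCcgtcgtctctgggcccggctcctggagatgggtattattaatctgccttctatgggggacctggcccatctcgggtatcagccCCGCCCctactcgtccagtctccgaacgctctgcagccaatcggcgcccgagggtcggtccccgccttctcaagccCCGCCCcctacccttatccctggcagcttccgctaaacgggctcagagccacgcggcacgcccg
TTGCATCA is the reverse complement of TGATGCAA, the core of the amino acid response element that ATF4 binds together with C/EBP proteins. TGATGCAA on either strand occurs in 304 of 35116 windows, or 0.866%, and in 3 of the 12 windows that RefSeq gives for 6 of the 7 members. The motif was chosen after the values and sequences were seen, and some members have several windows, so nothing is read from these shares. Each of these 3 matches is shown with 11 bases on either side, the motif in capitals. The SLC1A4 match lies at chr2:64989381-64989410 on the plus strand, with the first base of the motif at -7 from the start. The SLC1A3 match lies at chr5:36596357-36596386 on the plus strand, at -220 from a start, and the SLC1A5 match at chr19:46784893-46784922 on the minus strand, at -97 from another start of that gene.
SLC1A4 match: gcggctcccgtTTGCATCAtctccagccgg
SLC1A3 match: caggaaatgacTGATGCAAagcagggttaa
SLC1A5 match: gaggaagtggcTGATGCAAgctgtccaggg
A match describes letters only, and whether any of these matches acts in these cells was not tested.

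Counted by the brightest probe set of each gene, 2 of the 7 members were called higher at 6 h and none lower, beside 26% of all genes higher and 12.3% lower. At 24 h 3 were called higher and none lower, beside 24.9% and 12.4% of all genes. At 48 h 2 were called higher and 1 lower, beside 26.2% and 15.6%. The family was noticed in these contrasts, so nothing is read from these counts. The median differences of the members from untreated cells were 0.02, 0.02 and 0.10 in the order of exposure, beside 0.07, 0.06 and 0.05 over all genes.

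Between exposure times, few members were called, in a background that itself differed widely between the comparisons. From 6 h to 24 h, 1 of 7 members was called higher (SLC1A2), beside 1.04% of all genes, and none lower, beside 0.515%. From 24 h to 48 h none was called higher, beside 8.73% of all genes, and 2 were called lower (SLC1A4 and SLC1A5), beside 9.49%. The median member difference for 48 h against 24 h was -0.13, beside -0.01 over all genes. Comparing 48 h with 6 h, 1 was called higher, beside 11.4% of all genes, and 2 lower, beside 11.2%. Over all 26 probe sets, 4 were called at 48 h against 24 h, all of them lower, beside 16.4% of all probe sets called in either direction.

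Genes whose levels ran most like those of SLC1A1 were sought among 13676 genes above the 25th percentile of the signal, by Pearson's r over the 16 arrays. The 5 highest were MXI1, a MAX-binding repressor (r = 0.992), DDC, the aromatic amino acid decarboxylase (r = 0.992), the zinc finger gene ZNF235 (r = 0.991), the RNA helicase DDX25 (r = 0.990) and SMIM13 (r = 0.989). The 16 arrays fall into an untreated and a treated cluster, which alone gives a high r to any gene that differs between them. Within the 12 treated arrays the same r values were 0.576, 0.801, 0.548, 0.539 and 0.541. Their differences at 6 h were smaller than that of SLC1A1, at 0.67 for MXI1, 0.76 for DDC, 0.75 for ZNF235, 1.08 for DDX25 and 0.58 for SMIM13.

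The same search for SLC1A4 was added after its values were seen. It named CITED1, a transcriptional coregulator (r = 0.976), THAP10 (r = 0.974), BEND4 (r = 0.972), RD3 (r = 0.969) and BLCAP (r = 0.964). Within the 12 treated arrays their r was between 0.951 and 0.974. There SLC1A4 itself splits the 48 h arrays from those of 6 h and 24 h, which alone gives a high r. All 5 were lower at 48 h than at 24 h, with differences from -0.23 for BLCAP to -0.70 for RD3. Their choice by likeness to SLC1A4 brings this with it, so nothing is read from it.

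**Figure D4:**
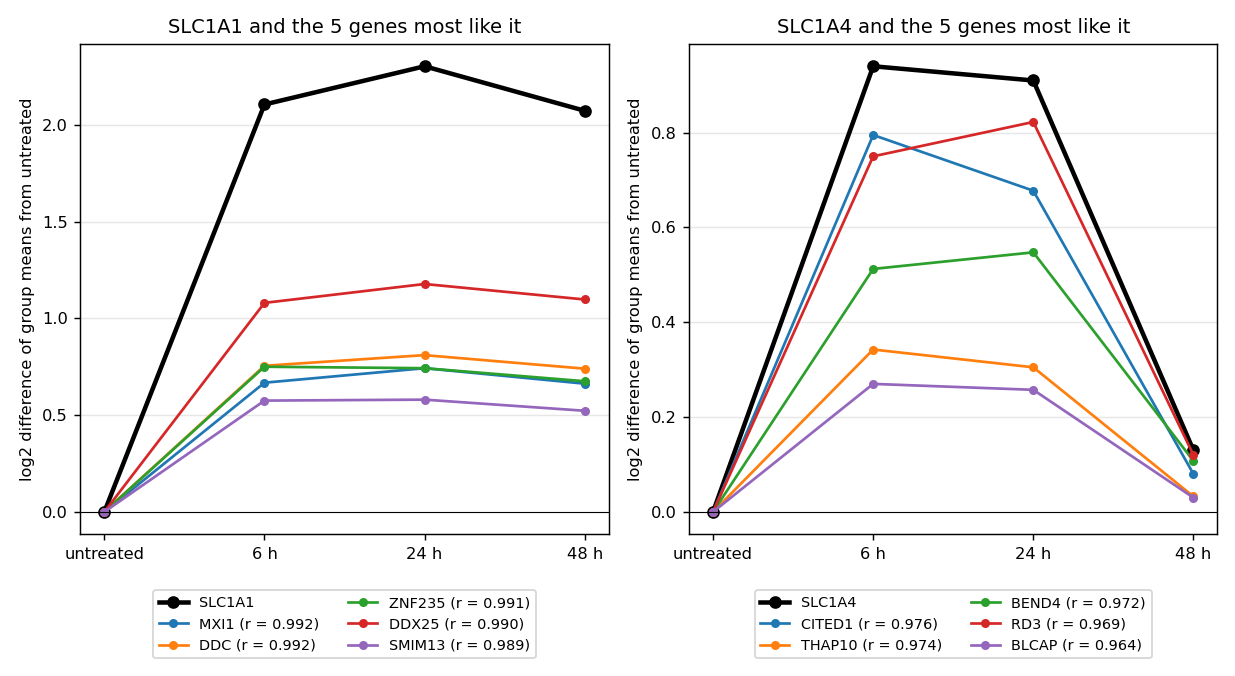
Log2 difference of each group mean from the untreated mean (vertical axis) for SLC1A1 (left) and SLC1A4 (right), in black, and the 5 genes whose levels correlated best with each over the 16 arrays. The SLC1A1-like genes stayed high at 48 h, and the SLC1A4-like genes came back to within 0.12 of the untreated mean. The genes were picked for this likeness in the same arrays.

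Other genes of the pathway came from lists chosen by function, with earlier results of these data known, each gene read by its brightest probe set and tested with limma over all probe sets. Of 14 measured genes of glutamate metabolism, 3 were higher and 1 lower at 6 h, 4 and 1 at 24 h, and 4 and 2 at 48 h. These counts, and those of the lists that follow, stand beside 26% of all genes higher and 12.3% lower at 6 h, 24.9% and 12.4% at 24 h, and 26.2% and 15.6% at 48 h, and most of this list's counts are near those shares. ASNS, asparagine synthetase, averaged 11.53 ± 0.04 at 6 h, 11.51 ± 0.06 at 24 h and 11.04 ± 0.05 at 48 h, against 10.85 ± 0.10 in untreated cells (SD, n = 4). Its differences from untreated cells were 0.68, 0.66 and 0.20 (SE 0.06), and at 48 h it fell by 0.47 against 24 h (adjusted p = 1.2e-05). ABAT, which breaks down GABA, was higher by 0.51, 0.47 and 0.51. GLUL, glutamine synthetase, changed by -0.17, -0.19 and -0.36 in its brightest probe set, while another of its 5 probe sets was called higher at 48 h by 0.38, and the mean of the 5 passed at no exposure (adjusted p = 0.448, 0.0591 and 0.214).

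Among 26 other amino acid transporters of the plasma membrane, 8 were higher and 4 lower at 6 h, 6 and 4 at 24 h, and 5 and 7 at 48 h. Their median differences were 0.08, 0.09 and 0.02, beside 0.07, 0.06 and 0.05 over all genes, and the counts at 6 h and 24 h are near the shares of all genes. SLC38A4, a sodium-coupled neutral amino acid transporter, changed by -4.28, -3.73 and -4.00 (SE 0.14). Its other probe sets differed by -1.13 to -0.24, and the mean of all 3 by -1.90, -1.73 and -1.79. SLC7A11, which exports glutamate in exchange for cystine, changed by -1.25, -1.12 and -1.42 (SE 0.12), while a second probe set of 3 was called higher at 24 h and 48 h, by 0.26 and 0.27. Its partner chain SLC3A2 differed by -0.02 and 0.06 at 6 h and 24 h and was higher by 0.22 at 48 h (adjusted p = 0.016), a call lost without untreated replicate 1 (adjusted p = 0.0637) or 48 h replicate 4 (adjusted p = 0.0614). SLC36A1, a proton-coupled transporter of small amino acids, was higher by 0.82, 0.68 and 0.57 (0.32, 0.27 and 0.27 as the mean of its probe sets), and SLC16A10, an aromatic amino acid transporter, by 0.52, 0.74 and 0.60. SLC7A5, a transporter of large neutral amino acids, was named after its values were seen: it was higher by 0.41 and 0.40 at 6 h and 24 h and changed by -0.46 at 48 h. A second SLC7A5 probe set did not turn over, at 0.21, 0.24 and 0.19. None of the 3 vesicular glutamate transporters was called, and SLC17A6 was dim.

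**Figure D5:**
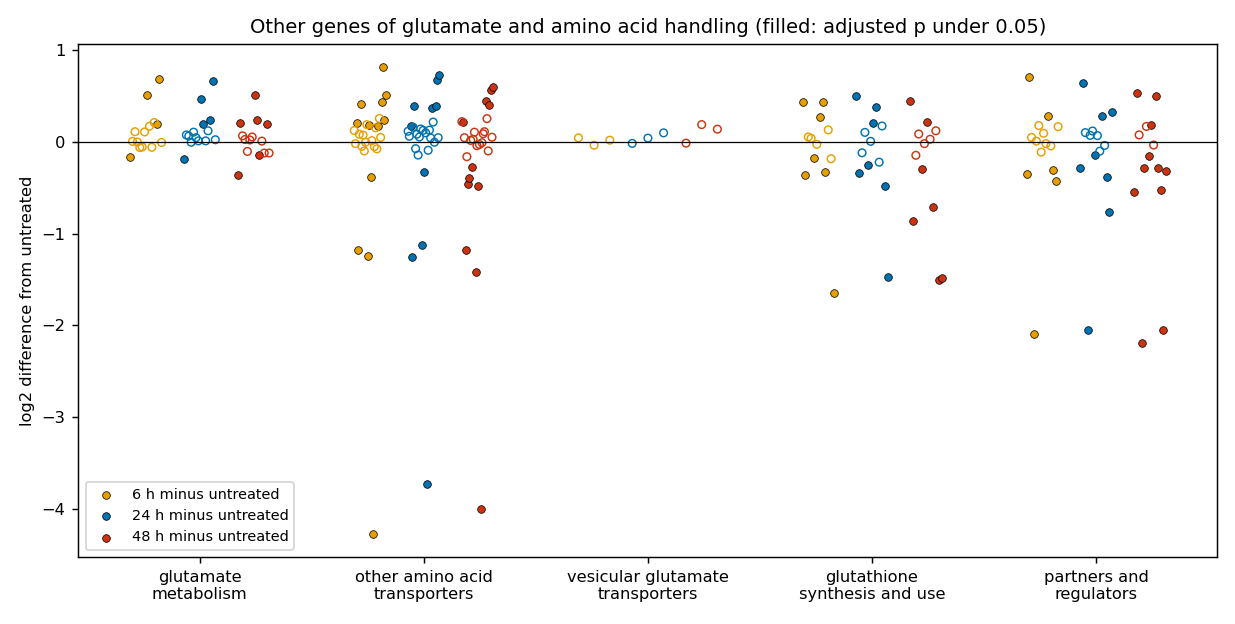
Log2 difference from untreated cells (vertical axis) of each measured gene of the 5 pathway lists (horizontal axis) at 6, 24 and 48 h, by its brightest probe set, with filled points where the adjusted p is under 0.05. The lowest point at each exposure is SLC38A4, at -4.28, -3.73 and -4.00, and no vesicular glutamate transporter is filled.

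Of 12 genes of glutathione synthesis and use, 3 were higher and 4 lower at 6 h and at 24 h, and 2 and 5 at 48 h, to be read against the shares of all genes given above. GCLC, the catalytic subunit of glutamate-cysteine ligase, was higher by 0.44, 0.50 and 0.45. GCLM, its modifier subunit, changed by -0.36, -0.34 and -0.86, and fell by 0.53 at 48 h against 24 h (adjusted p = 9.31e-05). The mean of its probe sets did not pass at 24 h (adjusted p = 0.217). MGST1, a microsomal glutathione transferase, changed by -1.65, -1.47 and -1.49. GGT7 was higher by 0.28, 0.20 and 0.22, but passed at no exposure under cyclic loess (adjusted p = 0.0788, 0.375 and 0.226), and at 24 h not without untreated replicate 4 or 24 h replicate 2 (adjusted p = 0.0944 and 0.0851).

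Partners and regulators of the SLC1 proteins numbered 14 measured genes, of which 2 were higher and 4 lower at 6 h, 3 and 5 at 24 h, and 3 and 8 at 48 h, to be read against the same shares. RTN2, a reticulon that aids delivery of SLC1A1 to the cell surface, was higher by 0.71, 0.65 and 0.53. ARL6IP5, which binds SLC1A1 and lowers its transport activity, changed by -0.35, -0.28 and -0.54. SGK1, a kinase that raises SLC1 transport activity in Xenopus oocytes, changed by -0.42, -0.77 and -2.05 (SE 0.08). AJUBA, a LIM protein that binds SLC1A2, changed by -2.09, -2.06 and -2.20. RFX1, a transcription factor, was higher by 0.28, 0.29 and 0.50, and did not pass at 6 h or 24 h under cyclic loess (adjusted p = 0.273 and 0.239). Its 6 h call was also lost without untreated replicate 3 or 6 h replicate 3 or 4, and its 24 h call without untreated replicate 3 or 24 h replicate 1 or 4 (adjusted p from 0.07 to 0.111).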

How the data were processed

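Total RNA of SK-N-SH cells was hybridised to Affymetrix Human Genome U219 arrays, 1 per sample. The deposited table holds log2 values that the authors made with RMA, per the submitters' processing notes, and the software version was not stated there. RMA subtracts background, equalises arrays by quantiles and summarises each probe set, so small shifts shared by most genes are removed and low values are compressed. The arrays' number and the distance from the low end limit the precision.

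From these values, group means were fitted with limma 3.58.1 (R 4.3.3) over all 16 arrays and 49293 probe sets, after 93 control probe sets were left out, with no filter on dim probe sets and Benjamini-Hochberg adjustment within each comparison at 0.05. Of these probe sets 45253 carry 1 gene symbol, 1327 several and 2713 none, and only those with 1 name a gene. The gene symbol came from the platform's annotation and was matched to RefSeq by Entrez ID for 45172. A gene was counted by the probe set with the highest mean, called the brightest. The members and the lists were chosen with earlier results of these data known.

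Named were all members, the 5 genes most like any member spanning at least 1 log2 unit, and in each list the 2 largest rises and 2 largest falls called at all 3 exposures, plus GLUL, SLC7A11, SLC3A2, SLC17A6, ARL6IP5, GCLC and GCLM; SLC7A5 was named after its values were seen, as were the genes most like SLC1A4 and the promoter motifs. The fit was tested on simulated data, as 6 h against untreated, with 50 changed probe sets at each size. It recovered 36% of 1.25-fold changes, 92% of 1.5-fold changes and 100% of 2-fold and 4-fold changes. Of 174 calls, 10 were false. Changes of 1.25-fold were thus mostly missed, and an uncalled difference of that size does not show equal levels. Alternatives were other filters, probe set summaries, scalings, fits and thresholds, a replicate block, and each array left out in turn.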

Additional observations from a re-analysis of the deposited data

Results flagged for a closer look

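In 7 of 104 groups of 4 arrays, 1 array lay far from the others, and chance alone gives about 1 in 20 groups. For SLC1A2, 24 h replicate 1 read 4.04 in 11745115_a_at (the others 3.84 to 3.87) and 48 h replicate 4 read 3.08 in 11718493_a_at (the others 3.19 to 3.20). For SLC1A3, 48 h replicate 2 read 3.15 in 11726251_a_at (the others 3.3 to 3.32). For SLC1A5, 48 h replicate 4 read 6.82 in 11716865_a_at (the others 6.54 to 6.56). For SLC1A6, 48 h replicate 1 read 3.15 in 11759665_a_at (the others 3.37 to 3.39). For SLC1A7, untreated replicate 4 read 3.39 in 11728619_a_at (the others 3.56 to 3.58) and untreated replicate 2 read 3.16 in 11763571_at (the others 2.91 to 2.93).

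Of 78 member differences between exposure times, over all probe sets, 10 passed the test, or 12.8%, beside 13.1% over all probe sets of the array. This pooled count of probe sets is no more than that background. Counted by brightest probe set, 1 of 7 members was called at 24 h against 6 h. The count was 2 at 48 h against 24 h and 3 at 48 h against 6 h, with the shares of all genes given above. SLC1A2 11718492_at was higher by 0.42 at 24 h against 6 h and by 0.29 at 48 h against 6 h. SLC1A4 11730614_a_at differed by -0.78 at 48 h against 24 h and by -0.81 against 6 h, and 11757680_a_at by -0.54 and -0.56. SLC1A5 11716866_x_at differed by -0.41 at 48 h against 24 h and by -0.33 against 6 h, 11716865_a_at by -0.28 at 48 h against 24 h, and 11740714_a_at by -0.37 at 48 h against 6 h.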

How the results depend on the processing

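Over 29 alternatives, 500 recomputed counts of SLC1 members and pathway genes stayed within 1.5 times the value reported and 10 did not. Leaving out the lowest 50% of probe sets kept 3 SLC1 genes and called 1 higher at 48 h against untreated (2 in the report), 0 higher at 24 h against 6 h (1) and 0 higher at 48 h against 6 h (1), where SLC1A2 was no longer measured. Averaging each gene's probe sets called 1 member lower at 6 h against untreated (0), and 0 higher both at 24 h against 6 h (1) and at 48 h against 6 h (1). It lowered the SLC1A1 differences to 1.19, 1.28 and 1.14, those of SLC1A4 to 0.42 and 0.43 at 6 h and 24 h, its fall of 48 h against 24 h to -0.29 (still called), and those of SLC1A2 to 0.15 and 0.08 at 24 h and 48 h. It turned the uncalled SLC1A4 difference of 24 h against 6 h to 0.0071 (-0.03 in the report) and the GLUL difference of 48 h against 24 h to 0.037 (-0.17), with the cause not tested. Cyclic loess called 1 member lower at 6 h against untreated (0) and 10 pathway genes higher at both 6 h and 24 h (16 at each). It moved the median of all probe sets by -0.05 at 6 h, and no scaling moved it by over 0.1. An adjusted p of 0.01 called 0 members higher at 48 h against 6 h (1). Without 1 array at a time, the count of members called lower at 48 h against 24 h was 2 to 3, and the pathway genes called higher at 6 h were 14 to 18. Of 89 called differences of named list genes, 69 passed in all these settings. Many of these genes were named because they were called at all 3 exposures, so the count is a description only. The replicate numbers showed no strong pairing of the arrays. Same-numbered arrays deviated together with r from -0.12 to 0.15 (median 0.038), and other-numbered arrays with r from -0.24 to 0.19 (median -0.012). Such weak correlations cannot show that the cultures were unpaired. With the replicate number as a block, 2 members were still called lower at 48 h against 24 h, with no count of members moved. Array weights and a fit without untreated arrays were alternatives chosen after seeing the data.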
